A study of Mus musculus with 6 samples.

Results

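The 52 genes described here encode the proteins of the complement and coagulation systems that the liver makes. They were chosen by gene symbol and all 52 were found among the 16140 genes of the deposited table, 26 of them complement genes and 26 genes of clotting and clot breakdown. Levels were measured by bulk RNA-seq of poly(A)-selected RNA from livers in which Selenoo was knocked out and from control livers, with all mice on a normal diet. Selenoo encodes SelO, a selenoprotein of mitochondria. Both groups carried floxed Selenoo alleles (Selofl/fl), per the labels, although the column names of the deposited table call the controls wild type. The 3 knockout livers also carried Alb-Cre, in which the albumin promoter directs Cre recombinase to hepatocytes, and the 3 control livers carried no Cre. An effect of Cre itself and an effect of losing Selenoo therefore cannot be told apart. The labels used here state no age, sex or strain. They do not state either that each library came from a separate mouse, so the p-values measure only the spread between these libraries. The question put to the 52 genes was whether complement, read by pathway, and the clotting factors, read apart from it, differed between knockout and control liver.

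Complement is a chain of plasma proteases and pore-forming proteins. The classical pathway starts when C1q binds an antibody or a surface and its attached proteases C1r and C1s become active and cut C4 and C2, while the lectin pathway reaches the same step through mannose-binding lectins and the MASP proteases. C3, the protein on which all routes meet, then leads to the terminal proteins, which assemble into a membrane pore. Coagulation is a parallel chain in which proteases made by hepatocytes act in turn until thrombin cuts fibrinogen into fibrin. Hepatocytes make most of these proteins, but C1q is made chiefly by macrophages and factor D chiefly by fat cells. The mouse genome holds a pair of C1s genes (C1s1 and C1s2) and a pair of C1r genes (C1ra and C1rb), all on chromosome 6.

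The deposited libraries held between 15550305 and 18680200 estimated counts. A library with a count of 0 could thus hold up to 3, which is 0.161 to 0.193 CPM (counts scaled to library size) before any further scaling. All other CPM values were scaled by TMM factors of 0.957 to 1.07, which adjust each library for its composition. Selenoo stood at 94.8, 84.2 and 96.0 CPM in the controls and at 6.29, 9.32 and 7.67 CPM in the knockouts, and the hepatocyte marker Alb stood at 101592 to 138752 CPM in all 6 libraries. Of the 13 hepatocyte markers tested, Serpina1a and Pck1 were higher in the knockouts at an adjusted p under 0.05 and none was lower. Of all genes tested, 0.772% were higher and 0.715% lower at that threshold. The controls varied more than the knockouts: the SD of log2 CPM was larger in the control group for 70.3% of the 12173 genes tested and for 44 of the 52 members. Fewer cells of a type and less RNA per cell cannot be told apart in such bulk samples.

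The C1s and C1r gene copies carried the changes that passed the test, and their sequences are shown first because reads can be assigned to a copy only where the copies differ. In the coding sequences (GENCODE M21, GRCm38) C1s1 and C1s2 were 95.6% identical over 2064 aligned bases and C1ra and C1rb were 98.0% identical over 2118. The longest run shared by the transcripts was 229 bases for the C1s pair and 757 bases for the C1r pair. Of all 100-base windows along the C1s2 transcript 8.78% were also found in C1s1, and of those along C1rb 42.7% were also found in C1ra. The 120-base coding windows with the most differences are printed 5′ to 3′ with the differing bases in capitals, 24 in the C1s pair (chr6:124531447-124531566 and chr6:124625669-124625788, minus strand) and 13 in the C1r pair (chr6:124522617-124522736 and chr6:124580663-124580782, plus strand).
C1s1: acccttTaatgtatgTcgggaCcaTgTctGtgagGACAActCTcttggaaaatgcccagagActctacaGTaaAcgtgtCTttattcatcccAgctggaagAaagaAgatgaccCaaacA
C1s2: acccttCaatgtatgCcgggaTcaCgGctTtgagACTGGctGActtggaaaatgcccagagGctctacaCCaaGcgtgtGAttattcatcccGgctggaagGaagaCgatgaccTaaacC
C1ra: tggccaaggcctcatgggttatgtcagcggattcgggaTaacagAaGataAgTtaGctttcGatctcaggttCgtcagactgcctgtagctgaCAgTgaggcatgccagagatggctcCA
C1rb: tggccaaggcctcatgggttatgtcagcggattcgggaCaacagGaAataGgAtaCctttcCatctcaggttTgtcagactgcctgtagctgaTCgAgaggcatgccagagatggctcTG

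The promoters of the copies are shown because C1s2 and C1rb fell together while C1s1 and C1ra did not. RefSeq promoter windows (GRCm38.p6, 300 bases around each gene's start) were matched for 42 of the 52 members, and those of the copies lie at chr6:124542310-124542609 for C1s1, chr6:124636036-124636335 for C1s2 (both minus strand), chr6:124512371-124512670 for C1ra and chr6:124570180-124570479 for C1rb (both plus strand). Runs of at least 12 bases shared within a pair are in capitals.
C1s1 promoter: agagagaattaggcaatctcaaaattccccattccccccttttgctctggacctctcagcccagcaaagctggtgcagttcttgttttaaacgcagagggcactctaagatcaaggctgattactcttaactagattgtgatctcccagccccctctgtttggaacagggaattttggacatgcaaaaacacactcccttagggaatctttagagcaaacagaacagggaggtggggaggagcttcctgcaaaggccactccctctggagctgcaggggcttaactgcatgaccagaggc
C1s2 promoter: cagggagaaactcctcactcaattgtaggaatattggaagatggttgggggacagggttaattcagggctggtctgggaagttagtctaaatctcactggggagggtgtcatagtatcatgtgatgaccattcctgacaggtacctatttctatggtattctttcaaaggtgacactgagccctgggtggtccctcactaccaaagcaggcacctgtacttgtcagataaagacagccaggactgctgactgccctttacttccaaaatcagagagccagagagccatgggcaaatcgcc
C1ra promoter: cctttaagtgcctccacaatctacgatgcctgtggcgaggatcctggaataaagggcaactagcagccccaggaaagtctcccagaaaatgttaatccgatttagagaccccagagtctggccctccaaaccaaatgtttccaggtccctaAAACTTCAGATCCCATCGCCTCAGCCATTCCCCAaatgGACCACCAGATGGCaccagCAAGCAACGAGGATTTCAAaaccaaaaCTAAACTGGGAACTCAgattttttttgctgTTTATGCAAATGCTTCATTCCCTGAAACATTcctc
C1rb promoter: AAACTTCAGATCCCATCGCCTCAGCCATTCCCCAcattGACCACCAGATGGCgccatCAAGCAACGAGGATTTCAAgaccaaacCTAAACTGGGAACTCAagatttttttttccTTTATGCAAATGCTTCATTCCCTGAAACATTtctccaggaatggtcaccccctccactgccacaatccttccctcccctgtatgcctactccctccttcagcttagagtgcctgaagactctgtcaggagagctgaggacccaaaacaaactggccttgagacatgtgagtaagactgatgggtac

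The C1ra and C1rb windows shared runs covering 114 bases, the longest of 34 bases, at different distances from the annotated starts. The C1s1 and C1s2 windows shared no run longer than 8 bases. A half-site of the liver factor HNF1, searched as GTTAAT on both strands, was found in the windows of C1ra and C1s2 and in 7.1% of all 32851 RefSeq windows. A C/EBP site, searched as TTGCNNAA on both strands, was found in the windows of C1s1, C1ra and C1rb and in 10.8% of all windows. These letters describe the windows only.

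C1s2 (chr6:124624625-124636085), a copy of the protease that cuts C4 and C2, fell to the edge of detection in the knockout livers. Its counts were 1174, 910 and 373 in the controls against 1, 0 and 1 in the knockouts, or 78.8, 47.0 and 19.3 CPM against 0.0537, 0 and 0.0568 CPM. The groups did not overlap, and the controls themselves spread over 4.07-fold, with the first highest and the third lowest. The summed counts of 2457 and 2 gave a ratio of 1232 with an exact 95% interval of 341 to 10182, which covers counting error only. The log2 fold change was -10.09 ± 0.82 (SE, n = 3 per group), and the adjusted p was 0.0017 (edgeR, quasi-likelihood test with Benjamini-Hochberg adjustment, the source of every p below unless another tool is named). The fitted size depends on the prior count, since the knockouts held almost no reads.

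C1rb (chr6:124570430-124581044), a copy of the protease that activates C1s, fell in the same libraries from a low level. Counts of C1rb came to 54, 29 and 17 in the controls and 0 in each knockout, or 3.62, 1.5 and 0.882 CPM in the controls. The control libraries stood in the same order as for C1s2, and the groups did not overlap. Against a floor of 3 counts over the knockout group, C1rb was at least 33.4-fold lower. The fitted log2 fold change was -8.13 ± 1.28 (SE, n = 3 per group) with an edgeR adjusted p of 0.0331. That call was lost without the second control, with an edgeR adjusted p of 0.0723, and without any 1 of the knockouts, with 0.0976, 0.0962 and 0.0865 in replicate order. It held without the first or the third control.

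The partner copies did not fall. C1s1 (chr6:124530344-124542392) stood at 213, 250.3 and 263 CPM in the controls and at 334, 356 and 355 CPM in the knockouts. Every knockout lay above every control, with a log2 fold change of 0.53 ± 0.14 (SE, n = 3 per group) that missed the threshold in edgeR (adjusted p of 0.0961) and passed it in DESeq2 (adjusted p of 0.00602). C1ra (chr6:124512621-124523440) stood at 279, 512 and 408 CPM in the controls and at 542, 545 and 515 CPM in the knockouts, a log2 fold change of 0.42 ± 0.21 (SE, n = 3 per group) with an edgeR adjusted p of 0.315. The C1ra groups were apart by little, since the second control came close to the third knockout, and the log2 fold change was 0.22 without the first control and 0.64 without the second.

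The deposited estimated counts of both pairs showed reads divided between copies. Within 0.01, 45 of the 52 members had whole counts in all 6 libraries, and the exceptions were C1ra, C1rb, C1s1, C1s2, C4b, Kng1 and Kng2. The sums C1s1 + C1s2 and C1ra + C1rb were whole in all 6 libraries, while in the knockouts each of the 4 genes was whole by itself. C1s2 made up 27.0%, 15.8% and 6.85% of the C1s sum in the controls against 0.0161%, 0% and 0.016% in the knockouts. Levels of single copies are therefore uncertain, and the sums do not depend on the division.

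With the copies added together before the fit, an alternative chosen after seeing the data, neither enzyme passed the test. The C1s sum was 291, 297 and 282 CPM in the controls against 334, 356 and 355 CPM in the knockouts. The means were 290.0 ± 7.55 and 348 ± 12.4 CPM (SD, n = 3), a log2 fold change of 0.26 ± 0.13 (SE) with an edgeR adjusted p of 0.301. The C1r sum was 283, 513 and 409 CPM in the controls against 542, 545 and 515 CPM in the knockouts, a log2 fold change of 0.41 ± 0.21 (SE, n = 3 per group) with an edgeR adjusted p of 0.318. Summed C1s and summed C1r were thus not lower in the knockouts, and all knockout sums lay above all control sums.

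**Figure D1:**
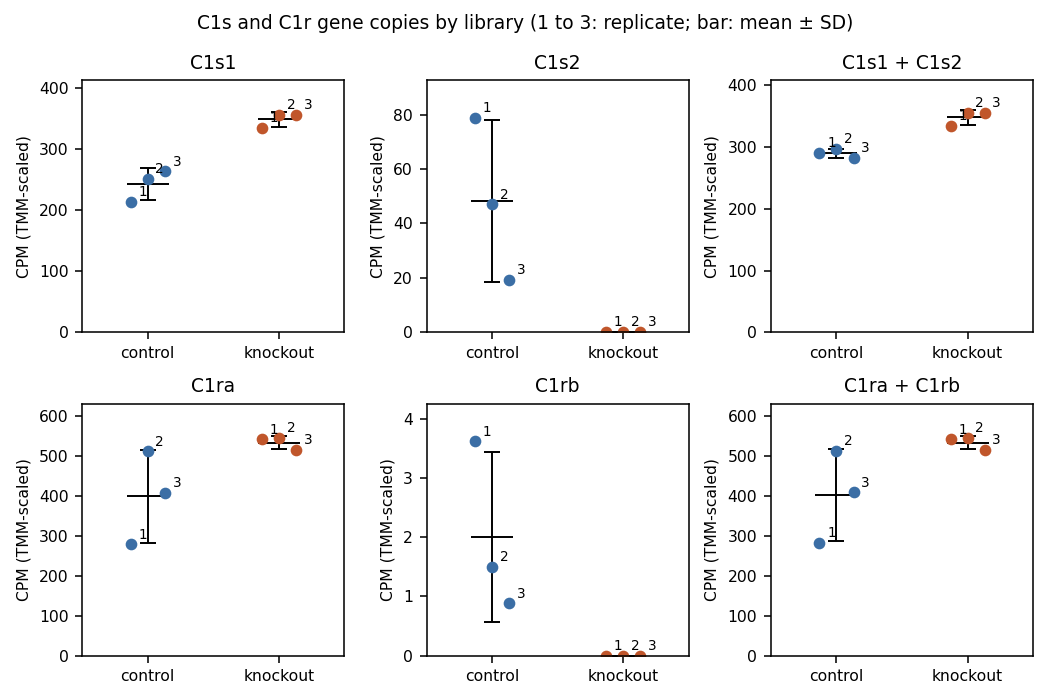
CPM of C1s1, C1s2 and their sum (upper row) and of C1ra, C1rb and their sum (lower row) in the 3 control (blue) and 3 knockout (orange) libraries, numbered by replicate; the black bars give mean ± SD. C1s2 and C1rb lie at or next to 0 in all knockouts, while the sums lie above the controls.

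C1s2, C1rb, C1s1, C1ra and the related protease gene C1rl lie within one stretch of chromosome 6, so the genes around C1s2 were read too. Within 500 kb of C1s2 the table held 33 genes, of which 30 were tested. Of the 29 other than C1s2, 4 passed the test (13.8%, against 1.49% of all tested genes), 2 in each direction. C1rb had itself prompted this reading, and without it 3 of 28 passed (10.7%). C1rb and Pianp, a neuronal membrane protein gene, were lower, and Clstn3, a calsyntenin, and Chd4, a chromatin remodeller, were higher.

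Pianp, 360.6 kb from C1s2, had 71, 112 and 45 counts in the controls against 3, 3 and 1 in the knockouts, a log2 fold change of -4.97 ± 0.52 (SE, n = 3 per group) with an edgeR adjusted p of 0.00457. The end of Cops7a overlaps the start of Pianp in the annotation, and without a stated strand setting reads of the overlap cannot be told apart. Clstn3 had 51, 66 and 80 counts against 182, 178 and 143, a log2 fold change of 1.35 ± 0.17 (SE, n = 3 per group) with an edgeR adjusted p of 0.0101. Chd4 had a log2 fold change of 0.66 ± 0.13 (SE, n = 3 per group) with an edgeR adjusted p of 0.039. The 16 tested genes between C1s2 and Pianp included no call, with log2 fold changes from -0.39 for Ptpn6 to 0.70 for Lpcat3. Lpcat3, at 27.0 kb from C1s2, stood at 53.2, 45.0 and 58.4 CPM in the controls against 77.5, 94.8 and 82.7 CPM in the knockouts. Its groups were apart, and its edgeR adjusted p of 0.0524 narrowly missed the threshold. Genes that passed the test were thus separated by genes that did not, a division that for Lpcat3 depends on the threshold.

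In this region the third control stood apart from the other controls at Cd163. Cd163, a macrophage receptor gene at -294.1 kb from C1s2 that was singled out after its values were seen, had 24, 29 and 260 counts in the controls against 178, 205 and 205 in the knockouts. The third control, in which C1s2 and C1rb were lowest, thus lay with the knockouts for Cd163. For Clstn3, Chd4, Lpcat3 and Pianp that library lay on the side of the other controls. Its C1s2 level of 19.3 CPM also stood above the knockouts, which reached at most 0.0568 CPM. Sequence variants of the region were not analysed here. The labels do not say whether the groups were littermates, so an inherited difference in this region between the mice and an effect of the knockout on C1s2 and C1rb cannot be told apart.

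**Figure D2:**
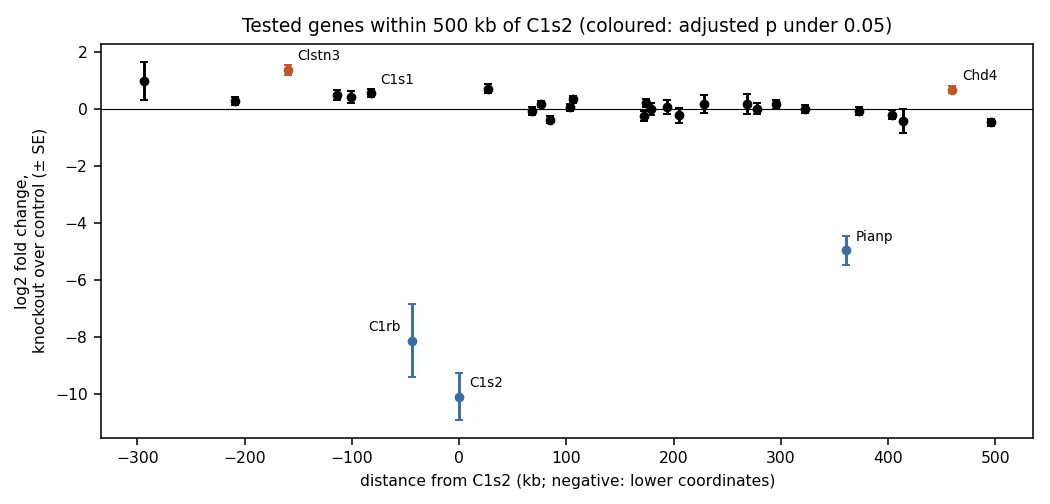
Log2 fold change (knockout over control, ± SE) of the 30 tested genes within 500 kb of C1s2, by distance from C1s2 in kb; genes with an adjusted p under 0.05 are coloured, blue when lower and orange when higher. C1s2, C1rb and Pianp lie far below the rest, with 16 uncalled genes between C1s2 and Pianp.

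Across the 26 complement genes, 0 passed the edgeR test as higher and 2 (C1s2 and C1rb) as lower, against 0.772% and 0.715% of all tested genes. At an unadjusted p under 0.05 there were 6 higher and 6 lower, where 9.27% and 9.26% of all genes lay. The groups did not overlap for 8 higher and 4 lower complement genes, against 13.3% and 11.9% of all genes. The median log2 fold change of the complement genes was 0.157, and 0.178 without C1s2 and C1rb, beside -0.018 for all tested genes. DESeq2 called 3 complement genes higher (C2, C1s1 and C6) and 3 lower (C1s2, C1rb and C1qb), where it called 3.17% and 2.24% of all genes, and limma-voom called C1s2 and C1rb alone, where it called 0.608% of all genes lower.

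The 3 chains of C1q, the recognition molecule of the classical pathway, lay together on the low side. C1qa (chr4:136895916-136898844) stood at 81.9, 113 and 88.7 CPM in the controls and at 70.8, 68.1 and 63.2 CPM in the knockouts. C1qb (chr4:136880126-136886200) stood at 95.4, 126 and 93.0 CPM against 75.2, 72.4 and 66.1 CPM. For both chains every knockout lay below every control, with the second control highest.

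C1qc (chr4:136889801-136892936) stood at 85.0, 142 and 101 CPM against 83.6, 86.9 and 72.9 CPM, and its groups overlapped at the first control. The log2 fold changes were -0.49 ± 0.15 for C1qa, -0.56 ± 0.15 for C1qb and -0.43 ± 0.19 for C1qc (SE, n = 3 per group), with edgeR adjusted p of 0.132, 0.104 and 0.267. C1qb passed in DESeq2 with an adjusted p of 0.0267. Without the second control the log2 fold changes were -0.34, -0.40 and -0.20 in the same order, so the C1qc value rests largely on that library. None of the 3 chains passed in edgeR, and all 3 had an unadjusted p under 0.05.

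Markers of other cell types were read beside C1q. Of all tested genes, 9.26% were lower at an unadjusted p under 0.05, and 47.8% had positive fold changes. Across all genes edgeR called 0.715% lower and DESeq2 2.24%. Of 13 Kupffer cell markers (resident liver macrophages) that are not members, 0 passed the edgeR test, 0 were higher and 3 lower at an unadjusted p under 0.05, and 11 had negative fold changes. Their summed level was 442 to 617 CPM in the controls and 462 to 508 CPM in the knockouts, and the Kupffer cell lectin Clec4f stood at 89.0, 113 and 96.6 CPM against 93.4, 84.7 and 84.2 CPM. Of 12 tested markers of other macrophages and monocytes, 0 passed, 7 were lower at an unadjusted p under 0.05 and all 12 had negative fold changes, with sums of 137 to 181 CPM against 110.0 to 120.3 CPM. DESeq2 called 0 of the Kupffer cell markers and 3 of the others (Spi1, Fcer1g and Aif1, all lower), and limma-voom called 0 of either list. All 9 tested lymphocyte markers also had negative fold changes, with 5 lower at an unadjusted p under 0.05, 1 of them (Jchain) passing the edgeR test, and sums of 16.4 to 31.1 CPM against 7.16 to 11 CPM. No marker of these lists was at 0 in all 6 libraries, and the part of these cells in the C1q values was not tested.

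The other classical pathway genes lay on the high side or near 0. C2, the protease that C1s cuts, stood at 73.1, 82.7 and 70.3 CPM in the controls and at 103, 118 and 95 CPM in the knockouts. The groups were apart, with a log2 fold change of 0.48 ± 0.14 (SE, n = 3 per group), an edgeR adjusted p of 0.114 and a DESeq2 adjusted p of 0.0355. C1rl, a C1r-like protease gene, had a log2 fold change of 0.48 ± 0.18 (SE, n = 3 per group) with an edgeR adjusted p of 0.194, and passed without the third control (0.69, edgeR adjusted p of 0.0296), a fit in which 3.3% of all genes were called higher. C4b, which encodes C4, stood at 808, 970.3 and 1138 CPM in the controls and at 1197, 1091 and 979 CPM in the knockouts. Its groups overlapped (0.16 ± 0.17, SE, n = 3 per group, edgeR adjusted p of 0.624), and C4b can share reads with its near-identical copy C4a, so its level is uncertain.

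In the lectin pathway none of the 4 genes passed the edgeR test, none had an unadjusted p under 0.05, none was called by DESeq2 and all had overlapping groups. Masp1, whose main product is the protease that starts this pathway, stood at 44.2, 66.7 and 79.7 CPM in the controls and at 91.6, 76.5 and 85.5 CPM in the knockouts. The third control overlapped the knockouts, and the log2 fold change was 0.41 ± 0.20 (SE, n = 3 per group) with an edgeR adjusted p of 0.314. Without the first control it was 0.21, and without the third it was 0.61. Masp2, the gene of the protease that cuts C4 and C2 here, stood at 289, 237 and 226 CPM against 249, 299.7 and 286 CPM (0.15 ± 0.15, SE, n = 3 per group, edgeR adjusted p of 0.615). In the controls Masp2 averaged 251 CPM and 345 TPM (scaled to transcript length), against 63.5 CPM and 24.4 TPM for Masp1. Its counts were thus divided by a shorter transcript length, and the level of the protease transcript alone was not examined. Mbl2, a mannose-binding lectin, stood at 364, 270.5 and 333 CPM against 339.9, 272 and 331 CPM, and the log2 fold changes of Mbl2 and Mbl1 were -0.04 ± 0.16 and -0.09 ± 0.17 (SE, n = 3 per group).

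C3, the hub of the system, stood at 5414, 6623 and 7720.3 CPM in the controls and at 7828, 6078 and 6621 CPM in the knockouts. The groups overlapped over most of their range, with a log2 fold change of 0.06 ± 0.18 (SE, n = 3 per group) and an edgeR adjusted p of 0.892. Cfb, factor B, the protease of the alternative pathway, stood at 887, 928 and 914 CPM against 1174, 1056 and 1077 CPM. Its groups were apart, yet the log2 fold change of 0.28 ± 0.13 (SE, n = 3 per group) did not pass, with an edgeR adjusted p of 0.305.

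Cfd, factor D, which cuts factor B and is known as adipsin for its source in fat, had 60, 194 and 14 counts in the controls against 44, 5 and 2 in the knockouts. The groups overlapped and the controls spread over 13.8-fold, and the log2 fold change was -2.39 ± 0.97 (SE, n = 3 per group) with an edgeR adjusted p of 0.229. It was -1.29 without the second control and -4.58 without the first knockout. Adipoq, the fat cell hormone adiponectin, had 0, 42 and 0 counts in the controls against 7, 0 and 0 in the knockouts. The second control and the first knockout, the libraries that hold Adipoq reads, held the most Cfd reads of their groups. Of the 7 adipocyte markers other than Cfd, Adipoq and Plin1 were at 0 in 4 libraries each and Lep in 5. Plin1, with 0, 7 and 0 counts in the controls against 3, 0 and 0 in the knockouts, followed the libraries of Adipoq. Retn, with 1, 15 and 0 counts against 5, 0 and 0, was also highest in these libraries. The 3 markers that were tested held reads in every library, also where Adipoq was at 0, and did not move alike. Fabp4 (-0.68 ± 0.23, overlapping groups) and Car3 (-0.67 ± 0.20, groups apart) were lower, and Cidec (0.57 ± 0.16, SE, groups apart) was higher. None passed the edgeR test (adjusted p of 0.169, 0.121 and 0.115 in that order), and DESeq2 called Car3 alone. The sum of the 7 markers was 2762 to 3142 CPM in the controls and 1332 to 2182 CPM in the knockouts. Nearly all of that sum was Car3, and without Car3 it was 14.3 to 23.9 CPM against 14.5 to 19.2 CPM. The part of these markers in the Cfd values was not tested.

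The terminal genes, whose products form the pore, had the highest median of the complement groups, 0.383 on the log2 scale. None of the 6 passed the edgeR test, and DESeq2 called C6, where it called 3.17% of all genes higher. At an unadjusted p under 0.05, 3 were higher and 0 lower, where 9.27% and 9.26% of all genes lay. In 3 the knockouts all lay above the controls, against 13.3% of all genes. C6 (chr15:4727067-4804045), which joins the pore after C5, stood at 108, 211 and 110.4 CPM in the controls and at 300.5, 279 and 268 CPM in the knockouts. The second control lay between the other controls and the knockouts.

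The C6 means were 143 ± 58.6 and 283 ± 16.5 CPM (SD, n = 3), a log2 fold change of 0.98 ± 0.25 (SE) with an edgeR adjusted p of 0.0887 and a DESeq2 adjusted p of 0.00291. Without the second control it was 1.37 with an edgeR adjusted p of 0.0186, where 0.277% of all genes were called higher, and with no filter on low counts the adjusted p was 0.0491. C6 is also on the list of Kupffer cell markers, whose other members are given above beside C1q. Hc, the gene of C5, whose cut starts pore assembly, stood at 456, 311 and 558 CPM against 669.9, 689 and 653 CPM. Its groups were apart (0.60 ± 0.20, SE, n = 3 per group, edgeR adjusted p of 0.165), and it passed without the third control (0.81, edgeR adjusted p of 0.0445), while without the second control Hc was at 0.40 (edgeR adjusted p of 0.35).

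The chains of C8 did not move alike in their group means. C8b, the beta chain, stood at 267, 372 and 248 CPM in the controls and at 381, 458 and 390.3 CPM in the knockouts (0.47 ± 0.18, SE, n = 3 per group, edgeR adjusted p of 0.212). C8a, the alpha chain, stood at 434, 604 and 419 CPM against 533, 629.8 and 626 CPM (0.30 ± 0.18, SE, n = 3 per group, edgeR adjusted p of 0.396, and 0.48 without the second control). C8g, the gamma chain, stood at 177, 126 and 109.7 CPM against 115, 147 and 135 CPM (-0.06 ± 0.19, SE, n = 3 per group, edgeR adjusted p of 0.892). Without the first control C8g was at 0.17, C8a at 0.22 and C8b at 0.4, so the sign of C8g depends on that library. The groups were apart for C8b, by a small gap, and overlapped for C8a and C8g, and differences between the chains were not tested. C9, the protein that completes the pore, stood at 293, 372 and 257 CPM against 336, 389 and 406 CPM. Its log2 fold change was 0.30 ± 0.17 (SE, n = 3 per group) with overlapping groups, and 0.18 without the third control and 0.46 without the second. In C6, C8a, C8b and C9 the second control was the highest control.

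None of the 3 complement inhibitors passed the edgeR test or had an unadjusted p under 0.05, and DESeq2 called none. Cfi, the protease factor I, stood at 575, 613 and 621 CPM in the controls and at 700.3, 647 and 717 CPM in the knockouts. The groups were apart by a small gap (0.19 ± 0.13, SE, n = 3 per group, edgeR adjusted p of 0.46). C4bp, which holds C4 in check, stood at 467, 438 and 461 CPM against 396, 411 and 439 CPM and overlapped (-0.13 ± 0.13, SE, n = 3 per group, edgeR adjusted p of 0.603). Per transcript length C4bp stood at 425, 418 and 440.4 TPM against 351, 344 and 358 TPM without overlap, and limma on log2(FPKM + 1) gave -0.36 ± 0.13 (SE, n = 3 per group) with an adjusted p of 0.213. Serping1, the inhibitor of C1r and C1s, stood at 1053, 1407 and 1198 CPM against 1229, 1121 and 1277 CPM (-0.01 ± 0.16, SE, n = 3 per group, edgeR adjusted p of 0.973), so the inhibitor of the C1 proteases stayed within the spread of the controls.

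Of the 26 coagulation genes, 0 passed the edgeR test in either direction, against 1.49% of all tested genes. At an unadjusted p under 0.05, 3 were higher and 0 lower, where 9.27% and 9.26% of all genes lay. DESeq2 called 2, both higher (F13b and Pros1), where it called 3.17% of all genes higher, and limma-voom called none. The knockouts all lay above the controls for 6 genes and all below for 0, against 13.3% and 11.9% of all genes. The median log2 fold change was 0.13, with 22 positive and 4 negative values where 47.8% of all tested genes were positive. On FPKM, which divides counts by transcript length, the split was 16 positive and 10 negative with a median of 0.083, and there the median of all tested genes was -0.047 rather than -0.018.

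**Figure D3:**
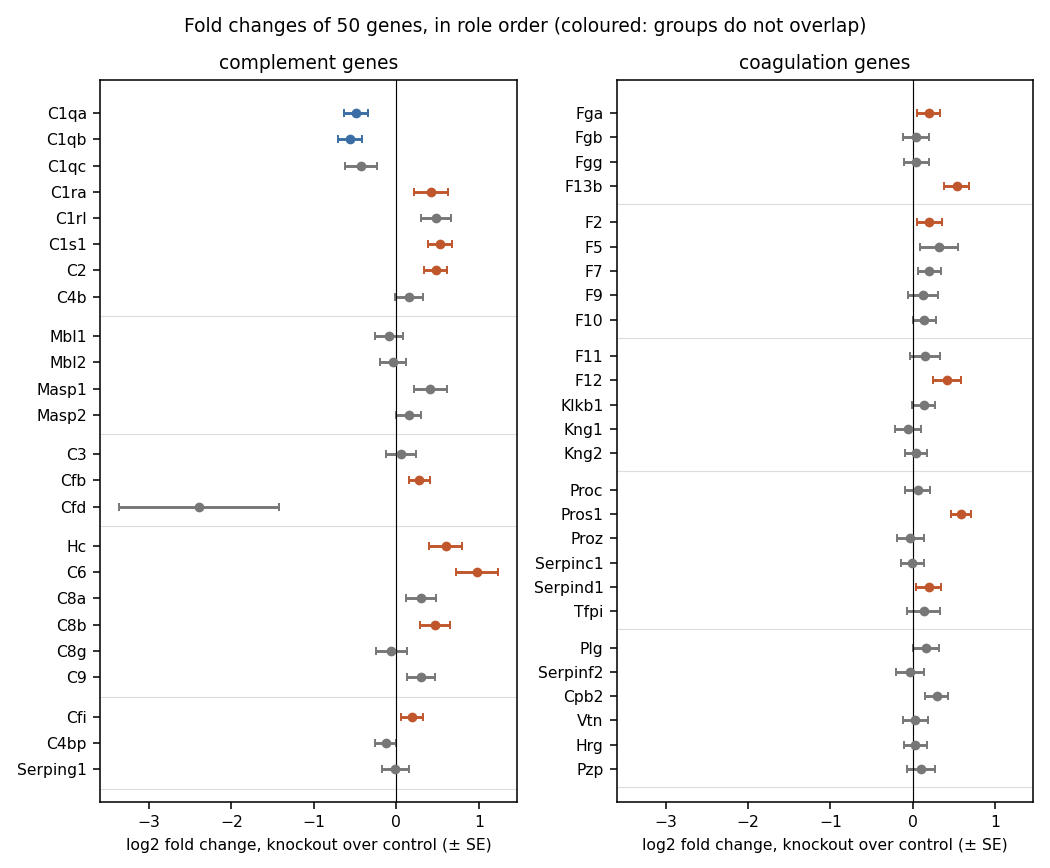
Log2 fold change (knockout over control, ± SE) of 50 genes, all members but C1s2 and C1rb, in order of role within complement (left) and coagulation (right); orange marks genes whose 3 knockouts all lie above the 3 controls, blue those below and grey those that overlap. Most coagulation values lie within 0.3 of 0, and C6, Hc, Pros1, F13b and C1s1 lie on the right.

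Fibrinogen, the precursor of the clot, is made of 3 chains whose genes lie together on chromosome 3, and these were among the most abundant members. Fga, the alpha chain, stood at 3862, 4418 and 4081 CPM in the controls and at 4960.3, 4558 and 4576 CPM in the knockouts. Fgb, the beta chain, stood at 4764, 3918 and 3631 CPM against 4173, 4310.1 and 4138 CPM. Fgg, the gamma chain, stood at 3288, 2843 and 2511 CPM against 2958, 2857 and 3069 CPM. Knockouts were above controls for Fga (0.19 ± 0.14, SE, n = 3 per group, edgeR adjusted p of 0.503) and inside the control range for Fgb and Fgg (0.04 ± 0.16 and 0.04 ± 0.15, edgeR adjusted p of 0.921 and 0.908).

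F13b, the carrier subunit of factor XIII, whose catalytic subunit cross-links fibrin, stood at 104, 106 and 119 CPM in the controls and at 132, 179 and 164 CPM in the knockouts. The groups were apart, with the first knockout nearest the controls. Its log2 fold change was 0.53 ± 0.15 (SE, n = 3 per group), with an edgeR adjusted p of 0.112 and a DESeq2 adjusted p of 0.0243.

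Among the clotting proteases and their cofactor none of the 5 genes passed the edgeR test or had an unadjusted p under 0.05, and DESeq2 called none. F2, prothrombin, stood at 1507, 1804 and 1938 CPM in the controls and at 2094, 1964 and 1979 CPM in the knockouts. The groups were apart by a narrow gap (0.20 ± 0.15, SE, n = 3 per group, edgeR adjusted p of 0.493, and 0.11 without the first control). F5, the cofactor that speeds the making of thrombin, stood at 282, 344 and 548 CPM against 522, 462 and 479.5 CPM. The third control was the highest of all 6 libraries, and without it the log2 fold change of F5 went from 0.32 ± 0.23 (SE, n = 3 per group, edgeR adjusted p of 0.477) to 0.64 with an edgeR adjusted p of 0.0496. Without the first control it was 0.13 (edgeR adjusted p of 0.753), so the F5 value rests on single controls. F7, the protease that starts clotting with tissue factor, stood at 55.2, 68.9 and 73.7 CPM against 72.4, 76.3 and 77.8 CPM (0.20 ± 0.14, SE, n = 3 per group, and 0.08 without the first control). F9 and F10, the proteases that lead to thrombin, had log2 fold changes of 0.12 ± 0.18 and 0.14 ± 0.14 (SE, n = 3 per group) with overlapping groups.

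The contact system, which starts clotting on charged surfaces and frees kinins, included no edgeR or DESeq2 call among 5 genes. At an unadjusted p under 0.05, 1 gene was higher and 0 lower, where 9.27% and 9.26% of all genes lay. That gene was F12, factor XII, at 391, 526 and 545 CPM in the controls against 695, 649.6 and 593 CPM in the knockouts. Its groups were apart, with a log2 fold change of 0.41 ± 0.17 (SE, n = 3 per group) and an edgeR adjusted p of 0.23, and it was 0.27 without the first control. Klkb1, plasma prekallikrein, stood at 166, 127 and 137 CPM against 153, 162 and 155 CPM (0.13 ± 0.14, SE, n = 3 per group, edgeR adjusted p of 0.649). Kng1, a kininogen, stood at 2846, 2303 and 2267 CPM against 2177, 2397 and 2543 CPM (-0.06 ± 0.16, SE, n = 3 per group, edgeR adjusted p of 0.862). Kng2, the second kininogen gene of the mouse, shares reads with Kng1: the sum of their estimated counts was whole in all 6 libraries. Kng2 made up 9.42% to 11% of that sum in the controls and 10.3% to 11.5% in the knockouts, unlike the division within the C1s pair.

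Of the 6 anticoagulants none passed the edgeR test, and DESeq2 called Pros1, where it called 3.17% of all genes higher. At an unadjusted p under 0.05, 1 was higher and 0 lower, where 9.27% and 9.26% of all genes lay. Pros1 (chr16:62854307-62929346), protein S, the cofactor of activated protein C, stood at 27.2, 26.5 and 31.9 CPM in the controls and at 41.4, 43.3 and 43.0 CPM in the knockouts. The knockouts lay close together and above all controls. The means were 28.5 ± 2.94 and 42.5 ± 0.983 CPM (SD, n = 3), a log2 fold change of 0.58 ± 0.12 (SE) with an edgeR adjusted p of 0.0591, the smallest among the coagulation genes.

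Pros1 passed in DESeq2 (adjusted p of 0.00583), with no filter on low counts (edgeR adjusted p of 0.0491) and without the third control (0.67, edgeR adjusted p of 0.0221). In the fit without the third control 3.3% of all genes were called higher. Pros1 did not pass at 0.05 in limma-voom, on FPKM, with the replicate block or with any other library left out. Serpinc1, antithrombin, stood at 2233, 2023 and 1829.5 CPM in the controls and at 2024, 2018 and 2000.4 CPM in the knockouts, all inside the control range (-0.01 ± 0.14, SE, n = 3 per group). Serpind1, heparin cofactor II, stood at 377, 485 and 489 CPM against 499.7, 513 and 533 CPM (0.19 ± 0.15, SE, n = 3 per group, edgeR adjusted p of 0.504). Proc, the gene of protein C itself, had a log2 fold change of 0.06 ± 0.15 (SE, n = 3 per group), Proz one of -0.03 ± 0.16 and Tfpi, the inhibitor of the tissue factor start, one of 0.13 ± 0.20, all with overlapping groups. Difference from Pros1 was not tested for these genes. Of 11 endothelial cell markers read beside Tfpi, 8 had negative and 3 positive fold changes. Among them Lyve1 alone passed the edgeR test, as lower (-1.15 ± 0.18, SE, adjusted p of 0.0197), where 0.715% of all genes were called lower. The part of endothelial cells in the Tfpi values was not tested.

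None of the 6 genes of fibrinolysis and its regulators passed the edgeR test or had an unadjusted p under 0.05, DESeq2 called none and all had overlapping groups. Plg, plasminogen, the precursor of the enzyme that dissolves fibrin, stood at 1839, 2348 and 2394 CPM in the controls and at 2507, 2465 and 2393 CPM in the knockouts (0.16 ± 0.16, SE, n = 3 per group, edgeR adjusted p of 0.597). Cpb2, a carboxypeptidase that slows fibrinolysis, stood at 341, 297 and 280.2 CPM against 340.0, 403 and 377 CPM (0.29 ± 0.14, SE, n = 3 per group, edgeR adjusted p of 0.318). The first control and the first knockout met, and the rest of the Cpb2 values were apart. Vtn, vitronectin, which binds the plasminogen activator inhibitor, stood at 2808, 2736 and 2423 CPM against 2893, 2483 and 2774 CPM (0.03 ± 0.15, SE, n = 3 per group). Serpinf2, the inhibitor of plasmin, Hrg, a plasminogen-binding protein, and Pzp, a broad protease inhibitor, had log2 fold changes of -0.03 ± 0.17, 0.03 ± 0.14 and 0.10 ± 0.17 (SE, n = 3 per group).

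**Figure D4:**
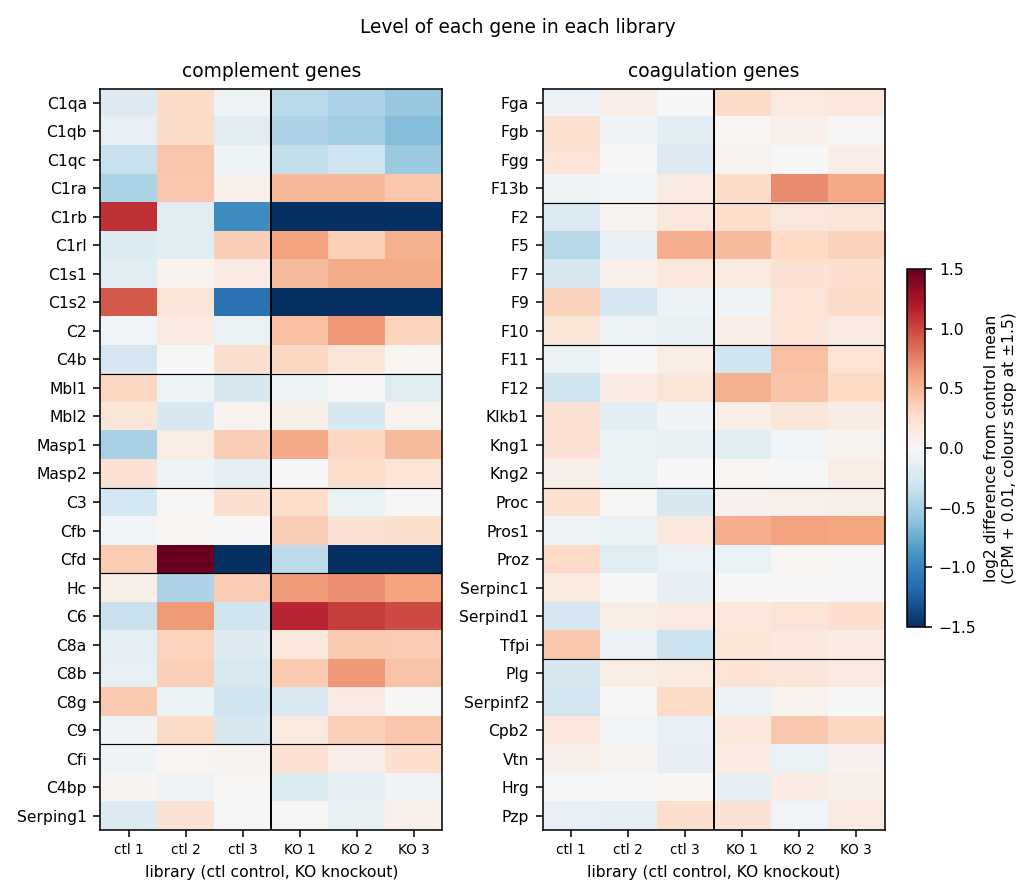
Log2 difference of each library from the control mean (CPM + 0.01) for the 26 complement and 26 coagulation genes, in order of role; ctl are the controls, KO the knockouts, and colours stop at ±1.5. C1s2 and C1rb are dark blue in all knockouts and graded from the first to the third control, the C1q chains are pale blue and C6 red in the knockouts, and most coagulation genes stay pale.

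Levels per transcript length (TPM, the deposited values) ranked the members much alike in both groups. Fgb was the highest with a mean of 3522 TPM over the 6 libraries, 3439.9 ± 54.2 in the controls and 3603 ± 179.8 in the knockouts (SD, n = 3). C3 was at 2481 ± 487 TPM in the controls and 2469 ± 397 TPM in the knockouts (SD, n = 3), and Fgg at 2399 ± 107 and 2521 ± 149 TPM (SD, n = 3). C3 ranked second in the controls and Fgg in the knockouts, a change of order within their spread. Vtn (2226 TPM), Fga (1927 TPM) and Kng1 (1844 TPM) followed as means over the 6 libraries.

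At the low end, Pros1 averaged 14.7 TPM, Cfd 5.44 TPM and Tfpi 3.73 TPM over the 6 libraries. C1s2 averaged 23.4 ± 11.7 TPM in the controls and 0.02 ± 0.0173 TPM in the knockouts (SD, n = 3), moving from rank 48 to rank 51 of 52. C1s1 averaged 113 ± 26.6 TPM in the controls and 162 ± 2.75 TPM in the knockouts (SD, n = 3), so C1s2 was the minor copy in every control. The 52 genes together summed to 24849.6 to 31111 TPM in the controls and 29272 to 32886 TPM in the knockouts, and these ranges overlapped. In CPM, which is not divided by length, the sums were 46275 to 48848 against 49629.8 to 52848 and did not overlap. The sums of the 26 coagulation genes did not overlap in CPM either (32555 to 33446 against 34462 to 35804). In TPM the coagulation sums overlapped (18399.7 to 22593 against 21543 to 23859). The sums of the 26 complement genes overlapped in CPM (12829 to 15689.8 against 15168 to 17044) and also in TPM.

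Genes of the same pathways outside the 52 were read from lists drawn up by function. At an unadjusted p under 0.05, 9.27% of all tested genes were higher and 9.26% lower. DESeq2 called 3.17% of all genes higher and 2.24% lower. Of 25 tested other complement genes, mostly receptors and regulators, 0 passed the edgeR test, with 2 higher and 3 lower at an unadjusted p under 0.05, and DESeq2 called 2 (Susd4, a regulator, higher and Cfp, properdin, lower). Of 23 tested other coagulation genes 1 passed: Serpine2, protease nexin 1, an inhibitor of thrombin, had 30, 89 and 53 counts in the controls against 154, 271 and 306 in the knockouts. Every knockout exceeded every control, with a log2 fold change of 2.12 ± 0.34 (SE, n = 3 per group) and an edgeR adjusted p of 0.0224. Of 19 genes of hepatocyte transcription factors and interleukin-6 receptor signalling, which drive many members in hepatocytes, 0 passed, with 1 higher and 1 lower at an unadjusted p under 0.05. DESeq2 called 1 gene of that list, Cebpb, as higher, and limma-voom called Serpine2 alone over the 3 lists.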

How the data were processed

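TRIzol extraction, enrichment on oligo(dT) beads and PCR amplification preceded sequencing, per the labels' protocols. Of the tools, the submitters' processing notes name HISAT2, Bowtie2 and RSEM 1.3.1, with the build GRCm38. Strand setting and filters are not stated there. Per the file headers, the authors deposited for each gene and library an estimated count, FPKM and TPM, and their own comparison with a log2 fold change and a q-value, which is not printed here.

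Estimated counts were rounded to whole numbers. Genes were filtered with filterByExpr, scaled by TMM and tested by genotype alone in edgeR 4.0.16 (R 4.3.3; quasi-likelihood F test). P-values were adjusted by Benjamini-Hochberg over 12173 genes, called under 0.05, and SE was derived from F. No molecular identifiers are stated, so PCR reads can repeat a molecule, and floors (3 counts) and 95% intervals cover counting error only. No 2 libraries of a group agreed within sampling noise (chi-square divided by its degrees of freedom was 18.9 or more). The fit was also run on simulated counts that assumed equal spread in the groups, unlike these data. No result is drawn from that run.

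Members and lists were chosen with earlier results of these data known. Values are given for called members, for the 2 smallest p and the highest TPM of each role, for whole complexes, for called genes of the pathway lists and for called genes near C1s2; single values of the remaining members are added. Correlates of C1s2 are not given, because its libraries fall into separate clusters. Alternatives were DESeq2 1.42.0, its size factors, limma 3.58.1 (voom, and log2 of FPKM plus 1 or 0.1 for genes of at least 0.5 FPKM in 3 libraries), no filter or 1 CPM in 3 libraries, a block for replicate number, an adjusted p of 0.1 and each library left out. Neighbours follow the coordinates of the deposited table, and member coordinates RefSeq GRCm38.p6.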

Additional observations from a re-analysis of the deposited data

How the results depend on the processing

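C1s2 was called under all 14 alternative fits (log2 fold change from -10.47 to -4.21, adjusted p from 5.19e-18 to 0.0218), and C1rb in 7 of the 11 that tested it (adjusted p from 1.79e-06 to 0.0976). The number of genes called in all (181, of which 94 higher and 87 lower) was 330 with no low-count filter, 635 with DESeq2, 114 (46 higher and 68 lower) with limma on log2(FPKM + 0.1), 87 with the replicate block, 513 at an adjusted p of 0.1 and 43 to 667 with 1 library left out; limma on log2(FPKM + 1) gave 53 higher and 68 lower. Complement genes called (2) were 1 with the filter of 1 CPM and with either limma fit on FPKM, 6 with DESeq2, 4 at an adjusted p of 0.1, 0 with the copies summed and 1 to 4 with 1 library left out. Coagulation genes called (0) were 1 with no filter, 2 with DESeq2, 1 at an adjusted p of 0.1 and 0 to 2 with 1 library left out, the 2 being Pros1 and F5 without the third control. The coagulation median (0.13) was 0.083 on FPKM with a pseudocount of 1, 0.085 with one of 0.1 and 0.07 to 0.148 with 1 library left out. The cause was not tested for these. Libraries with the same replicate number did not deviate together (r of -0.16, -0.079 and -0.076). With 3 libraries per group such values cannot exclude a pairing. Under the replicate block C1s2 and C1rb were still called.

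Members near 0 changed sign without passing: on FPKM, C3 at -0.07, Vtn at -0.02, Fgb at -0.0065 and Fgg at -0.0013 under both pseudocounts. With 1 library left out the signs of Mbl2, C3, C8g, Serping1, Fgb, Fgg, Kng1, Serpinc1 and Vtn changed at least once, with log2 fold changes from -0.15 to 0.06, from -0.07 to 0.19, from -0.20 to 0.17, from -0.11 to 0.10, from -0.04 to 0.16, from -0.05 to 0.15, from -0.12 to 0.06, from -0.08 to 0.07 and from -0.03 to 0.10 in that order. Of all values of named members under the alternatives, 542 kept direction and side of the threshold, 23 changed sign, 11 were newly called and 4 lost their call. Depth limits C1rb most, with 17 to 54 counts in the controls and 0 in every knockout.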
